A study of Mus musculus with 53 samples.

Results

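The comparison described here is ethanol dependence in the medial prefrontal cortex (mPFC) of mice that kept their microglia, measured in 16 of the 53 libraries of the series. Its members were chosen by 3 labels, namely the region mPFC, the control diet and the drinking history, which gave 9 dependent and 7 non-dependent mice with 1 library each. All mice were C57BL6/J at postnatal day 119. The labels attach a single treatment text to every mouse of the series, dependent and non-dependent, with chronic intermittent ethanol and a choice of 15% ethanol over 4 weeks and tissue taken 24 hours after the last ethanol. They do not say in what the treatment of non-dependent mice differed from that of dependent mice, nor do they give the sex of any mouse. Both groups ate control chow without drug. For comparison, 9 dependent and 9 non-dependent mice had eaten chow with PLX5622 at 1200 mg per kg for 28 days before the ethanol phase, and 5 dependent and 6 non-dependent control-diet mice gave libraries from the central nucleus of the amygdala (CeA). PLX5622 inhibits CSF1R, the receptor whose signal keeps microglia alive, so the control-diet groups are the ones in which dependence met a normal set of these cells. RNA came from whole tissue and was sequenced with a bias to the 3' ends of transcripts.

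Chronic intermittent ethanol is a rodent procedure in which repeated rounds of intoxication and withdrawal lead to escalated drinking. The medial prefrontal cortex takes part in decisions, in the control of drinking and in the response to stress, and its neurons change their excitability in withdrawal. Immediate early genes are the first genes a neuron transcribes after strong synaptic input, without the need for new protein. Several encode transcription factors of the AP-1 family, in which a JUN protein pairs with a FOS protein or another JUN, and others encode factors of the EGR and NR4A families or proteins that act at the synapse, such as Arc and Homer1. Microglia, the resident macrophages of the brain, watch over synapses and answer tissue damage with interferon and inflammatory genes.

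The 16 libraries held between 1773297 and 2313903 counts in genes, with a median of 2023713.5, and detected between 17397 and 18246 genes. None of 8 library measures, among them depth, detected genes and the mitochondrial share, differed between dependent and non-dependent libraries in an exact two-sided permutation test, where the smallest p was 0.321 and the smallest p adjusted over the 8 was 0.924. Added spike-in RNA made up 1.43%, 1.23% and 1.44% of the gene counts in the dependent libraries of mice 4, 10 and 27, while no other control-diet mPFC library held more than 51 spike-in counts. A library is said here to hold spike-in RNA at a share of 0.5% of its gene counts or more. By that mark 3 of the 9 dependent mPFC libraries on PLX5622 and 3 of the 5 dependent control-diet CeA libraries also held it. So did the dependent CeA libraries of mice 6, 7 and 8 on PLX5622. No non-dependent library of the series reached that mark, though traces of up to 316 spike-in counts occurred there. Markers of cortical neurons and of microglia were present, and so were those of striatal neurons. The 9 markers of cortical excitatory neurons summed to between 1142 and 1420 CPM (counts scaled to 1e6 per library) in dependent libraries and between 1155 and 1447 CPM in non-dependent libraries. The 7 markers of striatal neurons summed to between 476 and 991 CPM in dependent libraries and between 495 and 714 CPM in non-dependent libraries. The 15 markers of homeostatic microglia summed to between 393 and 469 CPM in dependent libraries and between 406 and 472 CPM in non-dependent libraries. Trem2 among them was listed at 0. Genes that every cell uses, such as Cox4i1 and Atp5a1 of the respiratory chain, were also listed at 0 in all 16 libraries, so a 0 in these counts says nothing of expression. The first principal component of the control-diet libraries, with 14.9% of the variance, was led by genes known from the olfactory bulb, among them S100a5, Scgn, Doc2g, Eomes and Cdhr1. Those 5 genes together reached 120 CPM in dependent mouse 28, 40.0 CPM in dependent mouse 11 and 69.4 CPM in non-dependent mouse 20, so Jun, the immediate early and interferon lists and some single genes are also given without these 3 libraries.

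**Figure D1:**
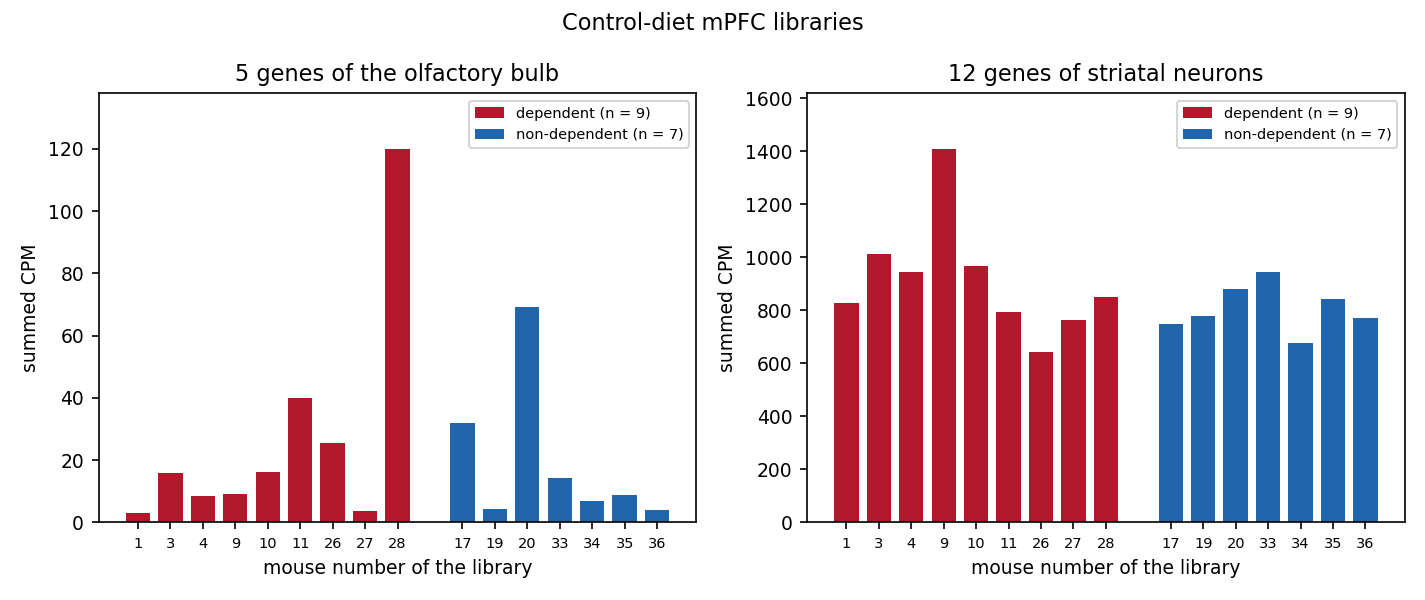
Summed CPM (vertical axis) in each control-diet mPFC library (horizontal axis, mouse numbers of the labels) for 5 genes known from the olfactory bulb, left, and for 12 genes of striatal neurons, right. Dependent libraries stand left of non-dependent ones. The olfactory sum is highest in dependent mouse 28 (120 CPM) and the striatal sum in dependent mouse 9 (1406 CPM).

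Across the transcriptome of this tissue, 1 gene passed the test between dependent and non-dependent mice. Of 12331 genes tested, 1 was called (0.00811%), the transcription factor gene Jun, which was higher in dependent mice. No gene was called lower (0%). A call is a Benjamini-Hochberg adjusted p under 0.05 over all genes in edgeR's quasi-likelihood test. DESeq2 also called 1. Without the filter on low counts edgeR called 10 of 26114 genes, 7 higher and 3 lower, Jun among them. At an unadjusted edgeR p under 0.05 there were 726 genes (5.89%), 377 of them higher (3.06%) and 349 lower (2.83%), and DESeq2 gave 583 (4.73%). Over all tested genes 6151 (49.9%) had a log2 fold change above 0, with a median of 0.00 on the log2 scale.

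Jun encodes the AP-1 subunit after which the JUN proteins are named, and lies on mouse chromosome 4 (chr4:95049034-95052222, minus strand, GRCm38). Dependent libraries held 32.1 CPM of Jun at the lowest, 35.6 at the median and 40.6 at the highest, and non-dependent libraries held 21.0, 22.0 and 29.1 CPM. Every dependent library lay above every non-dependent library. The log2 fold change was 0.55 ± 0.10 (SE), with a 95% interval from 0.35 to 0.75 and an edgeR adjusted p of 0.0117. These levels rest on 63 to 89 Jun reads per dependent library and 40 to 55 per non-dependent library. The 3 dependent libraries with spike-in RNA held between 32.1 and 37.1 CPM and the other 6 dependent libraries between 32.1 and 40.6 CPM, so both sets were above the non-dependent range. The call stands close to the threshold. It was lost when dependent mouse 26 (adjusted p = 0.0543) or non-dependent mouse 19 (0.0680), 20 (0.103), 34 (0.0698) or 35 (0.0634) was left out. It was also lost without the 3 spike-in libraries (log2 fold change 0.56, adjusted p = 0.0712) and without the 3 libraries highest in olfactory bulb genes (0.51, adjusted p = 0.331), while the fold change stayed between 0.51 and 0.59 over the 16 fits that each left out 1 library. An antisense gene, Junos, overlaps Jun, with a mean of 15.1 counts per dependent library and 10.6 per non-dependent library, while Jun had a mean of 71.3 per dependent library and 48.6 per non-dependent library. The labels do not say whether strand entered the counting, so reads of the pair cannot be assigned with certainty.

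The promoter of Jun is a textbook example of immediate early control, and its sequence is shown for that reason together with the stretch of Homer1 that holds the same letters. Capitals mark TGACATCA, a variant of the AP-1 element through which JUN is known to act on its own gene, and in Jun also a match to the consensus of the MEF2 family of transcription factors. Both windows are 30 bases read from RefSeq promoters of GRCm38.p6, with Jun from chr4:95052242-95052271 on the minus strand and Homer1 from chr13:93303668-93303697 on the plus strand.
Jun: ggggTGACATCAtgggCTATTTTTAGggat
Homer1: ttccggccgcgTGACATCAtcccccgcaca
In Jun the first motif covers bases 45 to 38 before the RefSeq start, and in Homer1 bases 78 to 71 before it. That start of Homer1 lies inside the gene as the GENCODE annotation of the counts draws it (chr13:93299635-93405129, plus strand). Searched on both strands, TGACATCA was found in 1189 of 32851 promoters (3.619%) and in 2 of the 17 immediate early genes in the table, while the MEF2 consensus was found in 1047 promoters (3.187%) and in 2 of the 17, Jun and Nr4a2. The cyclic AMP element TGACGTCA was in 588 promoters (1.79%) and in 1 of the 17, Btg2, an antiproliferative gene. A match describes the letters only.

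**Figure D2:**
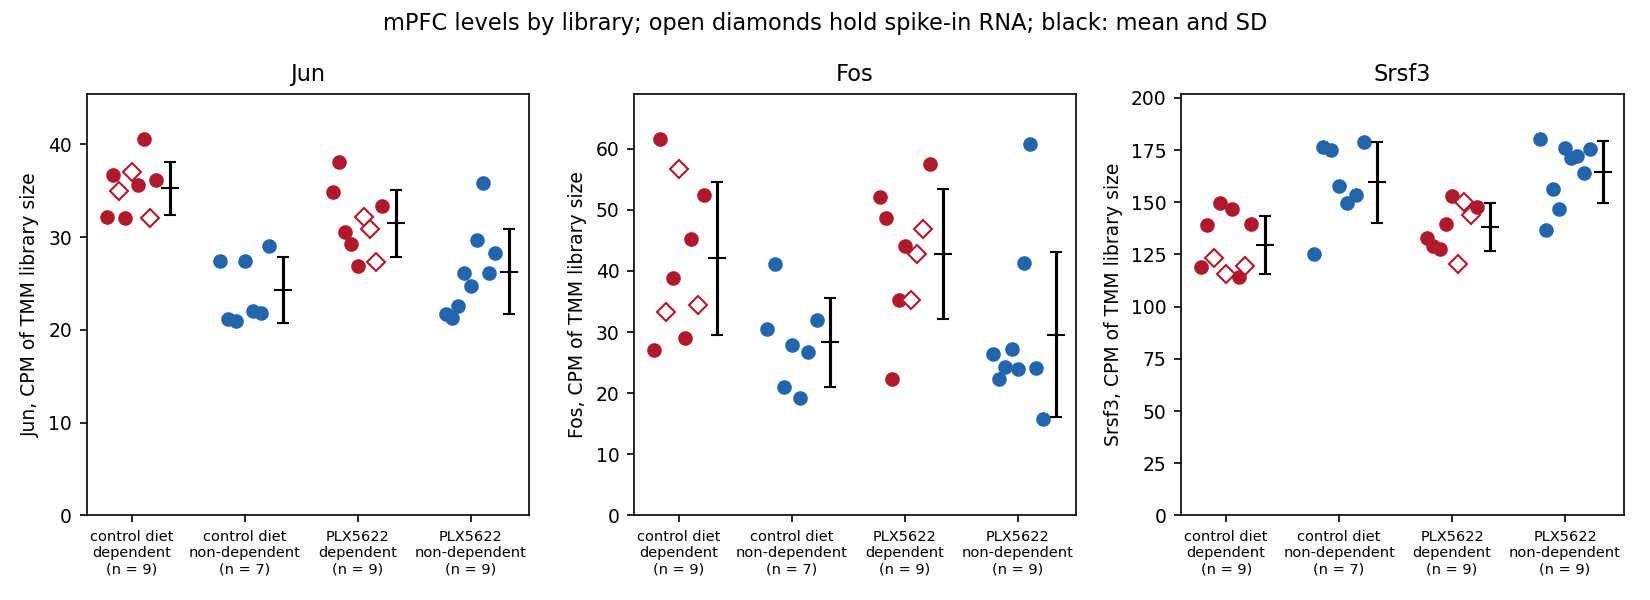
Level in CPM of TMM library size (vertical axis, from 0) of Jun, Fos and Srsf3 in each mPFC library of 4 groups. Points are libraries, open diamonds hold spike-in RNA, and black marks give the mean and SD. Dependent control-diet libraries of Jun sit between 32.1 and 40.6 CPM, above all 7 non-dependent ones. In Fos and Srsf3 the groups overlap.

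Of 22 immediate early genes listed, 20 were tested and 1 was called, Jun. Jund and Egr2 were listed at 0 in all 16 libraries. Of the 20, 19 had a log2 fold change above 0, against 49.9% of all genes, and their median was 0.21, against 0.00 over all genes. At an unadjusted edgeR p under 0.05, 6 of the 20 were higher and 0 lower, against 3.06% and 2.83% of all genes. The median stayed between 0.17 and 0.25 over the fits that each left out 1 library, and was 0.18 without the spike-in libraries and 0.23 without the 3 libraries highest in olfactory bulb genes. Summed over the list, levels were 1503, 1628 and 1945 CPM (lowest, median, highest) in dependent libraries and 1234, 1506 and 1757 CPM in non-dependent libraries, so the groups overlapped.

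Among partners of Jun in AP-1, Fos was at 27.0, 38.9 and 61.6 CPM in dependent libraries and at 19.2, 27.9 and 41.1 CPM in non-dependent libraries. Its log2 fold change of 0.56 ± 0.23 was as large as that of Jun but its libraries spread more widely, and the groups overlapped (edgeR adjusted p = 0.764). Junb, another JUN protein, had medians of 38.3 CPM in dependent and 28.5 CPM in non-dependent libraries (log2 fold change 0.32 ± 0.19). Fosb, whose product accumulates on repeated stimulation, had medians of 17.4 CPM in dependent and 10.4 CPM in non-dependent libraries (0.38 ± 0.23). Fosl2 differed by 0.23 ± 0.18. None of these 4 passed the test.

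Dusp6, a phosphatase that ends ERK signalling, stood next after Jun in the list. It was at 55.9, 59.2 and 75.8 CPM in dependent libraries and at 39.8, 44.2 and 61.4 CPM in non-dependent libraries (log2 fold change 0.29 ± 0.09, edgeR adjusted p = 0.567). All 9 dependent libraries lay above the non-dependent median, although the ranges overlapped. Homer1, which encodes a scaffold of the postsynaptic density and a short activity-induced form, was at 381, 419 and 499 CPM in dependent and at 341, 382 and 475 CPM in non-dependent libraries (0.16 ± 0.05, adjusted p = 0.663). Counts per gene do not separate these forms. Egr4 (0.19 ± 0.08) and Ier2 (0.38 ± 0.19) completed the 6 with an unadjusted p under 0.05. Arc, which acts in the removal of AMPA receptors from synapses, had medians of 115.3 CPM in dependent and 100.9 CPM in non-dependent libraries (0.25 ± 0.19). Among the NR4A nuclear receptors the differences were 0.18 ± 0.14 for Nr4a1, 0.41 ± 0.33 for Nr4a2 and 0.15 ± 0.13 for Nr4a3. Egr1 had nearly equal medians, 293 CPM in dependent and 292 CPM in non-dependent libraries (0.10 ± 0.08). Npas4, a factor induced by calcium entry, differed by 0.08 ± 0.24, Bdnf, the neurotrophin, by 0.07 ± 0.09 and Ier5 by 0.03 ± 0.10. Btg2 (0.35 ± 0.24) and Nptx2 (0.16 ± 0.10), a pentraxin that gathers AMPA receptors, were also above 0. Egr3 was the 1 tested member below 0, at -0.08 ± 0.10.

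**Figure D3:**
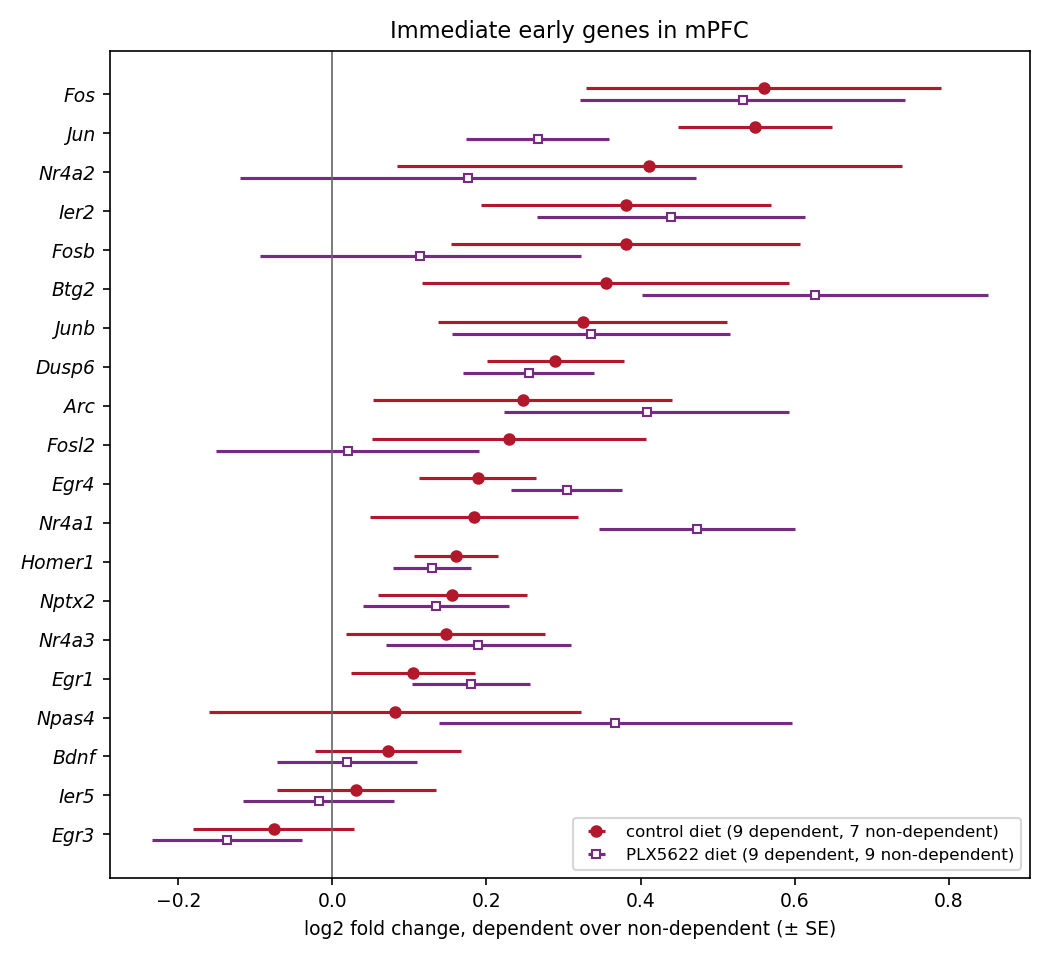
Log2 fold change of dependent over non-dependent mice (horizontal axis, ± SE) for the 20 tested immediate early genes in mPFC. Filled circles are the control diet and open squares the PLX5622 diet, which shares no library with it. On the control diet 19 of 20 lie above 0, and Jun has the smallest error beside its size.

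The 12 higher and 12 lower genes of smallest p give the rest of the profile, and apart from Jun none of them was called. After Jun the smallest p among higher genes belonged to 4833422C13Rik, an antisense transcript that overlaps Ssbp2, Acot12 and Gm22778. It was at 22.3, 25.3 and 34.7 CPM in dependent libraries and at 11.98, 18.4 and 26.3 CPM in non-dependent libraries, which overlapped (log2 fold change 0.56 ± 0.13, edgeR adjusted p = 0.207). As the use of strand is not given, its reads cannot be told with certainty from those of the opposite strand. Hrk, a pro-apoptotic gene of the BCL2 family, was at 46.6, 58.3 and 67.4 CPM in dependent and at 36.4, 47.1 and 50.9 CPM in non-dependent libraries (0.36 ± 0.09, adjusted p = 0.213). Wdr13, a WD repeat protein, was at 146.5, 155 and 164 CPM in dependent and at 125, 131 and 152 CPM in non-dependent libraries, a small difference with a small error (0.20 ± 0.05, adjusted p = 0.213). For Hrk 8 of 9 and for Wdr13 all 9 dependent libraries lay above the non-dependent median.

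Tbc1d9, which carries a domain that acts on Rab GTPases, did not overlap between groups, with 90.8, 97.5 and 113.01 CPM in dependent and 78.1, 85.9 and 88.2 CPM in non-dependent libraries (log2 fold change 0.24 ± 0.06, edgeR adjusted p = 0.293). Cog7, a subunit of the Golgi tethering complex COG, was at 32.4, 39.9 and 48.6 CPM in dependent and at 26.8, 31.1 and 39.4 CPM in non-dependent libraries (0.34 ± 0.09, adjusted p = 0.457). Adgrg1, the adhesion receptor also called GPR56, was at 28.3, 40.9 and 52.3 CPM in dependent and at 17.5, 29.4 and 37.0 CPM in non-dependent libraries (0.47 ± 0.12, adjusted p = 0.457). Gbp7, an interferon-induced guanylate-binding protein, had the largest fold change of the 12 at 0.76 ± 0.21, with medians of 11.9 CPM in dependent and 6.01 CPM in non-dependent libraries. The other higher genes were Dleu7 (0.52 ± 0.14), Lhfp (0.29 ± 0.08), Slc7a4, of the cationic amino acid transporter family (0.27 ± 0.08), and Plcxd2 (0.25 ± 0.07). Adjusted p was 0.457 for each of these 5.

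Srsf3, a splicing factor of the SR family, had the smallest p among the lower genes. It was at 114.1, 123.2 and 150 CPM in dependent libraries and at 125, 158 and 179 CPM in non-dependent libraries (log2 fold change -0.30 ± 0.07, edgeR adjusted p = 0.207). No dependent library reached the non-dependent median, although non-dependent mouse 17, at 125 CPM, and mouse 34, at 149.5 CPM, lay inside the dependent range. Srsf3 was called when mouse 17 was left out. Kcns1, a subunit that modifies KV2 potassium channels, was at 16.6, 20.1 and 24.4 CPM in dependent and at 22.5, 26.4 and 33.7 CPM in non-dependent libraries (-0.44 ± 0.12). Tfrc, the transferrin receptor that brings iron into cells, was at 76.0, 84.1 and 105.8 CPM in dependent and at 92.9, 101.9 and 134.8 CPM in non-dependent libraries (-0.29 ± 0.08). Susd4, a complement regulator, had medians of 199 CPM in dependent and 225 CPM in non-dependent libraries (-0.18 ± 0.05). Mef2d, which encodes a MEF2 transcription factor, had medians of 172 CPM in dependent and 193 CPM in non-dependent libraries (-0.17 ± 0.05). Fbxo9, a ubiquitin ligase subunit, differed by -0.27 ± 0.07, Lztfl1, which regulates the ciliary BBSome, by -0.24 ± 0.07 and Wdr70 by -0.26 ± 0.07. The largest fold changes among the lower genes came from genes of low level, C1qtnf12 (-0.67 ± 0.19), Atp13a4 (-0.62 ± 0.17), Tnnc1, the slow troponin C (-0.59 ± 0.18), and Tmem116 (-0.57 ± 0.16). From Kcns1 onward the edgeR adjusted p ranged from 0.457 to 0.567.

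Groups did not overlap at all in 5 of the 12331 genes (0.0405%), 3 higher (0.0243%) and 2 lower (0.0162%). Besides Jun and Tbc1d9 these were Ube2z, Glrx and Rbfox3, which are named because of these values. Ube2z, a ubiquitin-conjugating enzyme, was at 91.3, 98.8 and 105.2 CPM in dependent and at 86.4, 88.9 and 91.1 CPM in non-dependent libraries (log2 fold change 0.16 ± 0.06). Glrx, glutaredoxin, was at 14.1, 18.3 and 19.7 CPM in dependent and at 20.0, 22.3 and 23.3 CPM in non-dependent libraries (-0.32 ± 0.11). Rbfox3, which encodes the neuronal marker NeuN, was at 282, 323 and 333 CPM in dependent and at 335, 347 and 392 CPM in non-dependent libraries (-0.14 ± 0.05). The edgeR adjusted p was 0.663 for Glrx and 0.669 for Ube2z and Rbfox3. In whole tissue, fewer cells of a type and less RNA per cell cannot be told apart.

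The same contrast in mice that had eaten PLX5622 shares no library with the control-diet one, though it shares the fit and the counting. On that diet 0 of 12331 genes were called by edgeR (0%) and 728 had an unadjusted p under 0.05 (5.90%), with 0 and 599 (4.86%) in DESeq2. Of the 12 higher genes 11 were also above 0 on PLX5622, with a median log2 fold change of 0.24, and of the 12 lower genes 11 were below 0, with a median of -0.11. Over all genes 57.8% had the same sign on both diets, and the correlation of the fold changes over the 12331 genes, which share depth and tissue, was 0.225. Hrk had log2 fold changes of 0.36 ± 0.09 on the control diet and 0.38 ± 0.08 on PLX5622, Dleu7 0.52 ± 0.14 and 0.50 ± 0.13, and Srsf3 -0.30 ± 0.07 and -0.25 ± 0.06. Jun on PLX5622 was at 26.9, 30.9 and 38.1 CPM in dependent and at 21.3, 26.1 and 35.8 CPM in non-dependent libraries, a log2 fold change of 0.27 ± 0.09 (edgeR adjusted p = 0.637). Fos differed by 0.53 ± 0.21 on that diet, and 18 of the 20 immediate early genes were above 0, with a median of 0.22.

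Whether the difference between dependent and non-dependent mice varied with diet was tested as an interaction. In edgeR 0 of 12331 genes passed (0%), with 354 at an unadjusted p under 0.05 (2.87%), against 0 and 260 (2.11%) in DESeq2. The smallest interaction p was that of Cog7, with a log2 fold change of 0.34 ± 0.09 on the control diet and -0.18 ± 0.08 on PLX5622 (edgeR interaction adjusted p = 0.616). For Jun the unadjusted interaction p was 0.0446 and the adjusted p 1.00. C1qtnf12, Atp13a4, Lztfl1 and Wdr70, all among the 12 lower genes of the control diet, had values of 0.10 ± 0.17, -0.02 ± 0.15, -0.01 ± 0.06 and -0.02 ± 0.07 on PLX5622. Their interaction was not called either.

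In the CeA of control-diet mice, read on another instrument, the 11 libraries held between 1242295 and 1968971 counts. There edgeR called 1 of 11721 genes (0.00853%) and put 716 at an unadjusted p under 0.05 (6.11%). Of the 12 higher genes 8 were above 0 in CeA and of 11 lower genes tested 8 were below 0, where 54.5% of all genes had the same sign in both regions and the correlation over 11424 genes was 0.0931. Some mouse numbers occur in both regions, and the difference between regions was not tested. Jun had a CeA log2 fold change of -0.02 ± 0.20. Gbp7 (0.98 ± 0.40), Lhfp (0.66 ± 0.17), 4833422C13Rik (0.53 ± 0.20) and Kcns1 (-0.50 ± 0.19) had values in CeA on the same side as in mPFC and none was called. Immediate early genes had 13 of 19 members above 0 in CeA with a median of 0.05.

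**Figure D4:**
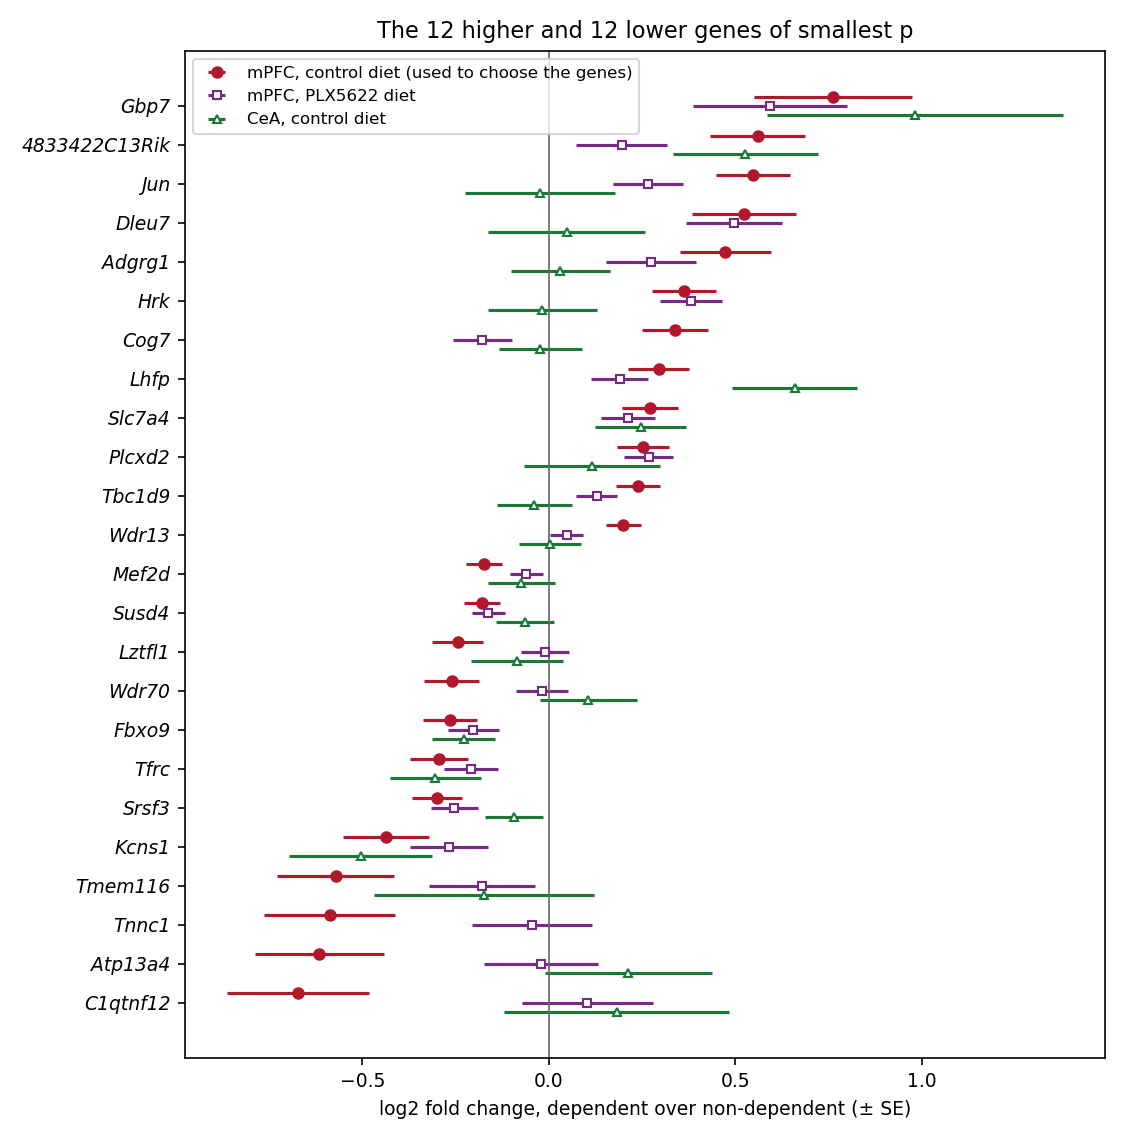
Log2 fold change of dependent over non-dependent mice (horizontal axis, ± SE) of the 12 higher and 12 lower genes of smallest p in control-diet mPFC. Circles are the comparison that chose the genes, squares mPFC on PLX5622 and triangles control-diet CeA. On PLX5622 11 of 12 and 11 of 12 keep their side, with Cog7 and C1qtnf12 the exceptions. Tnnc1 was not tested in CeA.

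Microglial genes gave no call. Of 18 tested genes of homeostatic microglia 0 were called, 13 were above 0 and the median log2 fold change was 0.02, and at an unadjusted edgeR p under 0.05 0 were higher and 1 lower. Their sum was 442, 492.6 and 525 CPM (lowest, median, highest) in dependent and 451, 483 and 523 CPM in non-dependent libraries, whereas on PLX5622 it ran from 35.7 to 126 CPM in dependent and from 44.1 to 75.5 CPM in non-dependent libraries. Csf1r, the receptor that PLX5622 blocks, was at 37.2, 43.2 and 45.5 CPM in dependent and at 32.0, 38.0 and 47.9 CPM in non-dependent libraries (0.14 ± 0.12, with a 95% interval from -0.11 to 0.39). P2ry12, the purine receptor that steers microglial processes, was at 29.9, 33.5 and 38.8 CPM in dependent and at 33.0, 41.1 and 48.1 CPM in non-dependent libraries (-0.25 ± 0.10, edgeR adjusted p = 0.764). No dependent library reached the non-dependent median of P2ry12, and the ranges overlapped. Gpr34, a lysophospholipid receptor of these cells, differed by -0.31 ± 0.20.

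Immune genes outside the homeostatic set gave 0 calls. Among 9 tested genes of activated microglia 8 were above 0, with a median of 0.10 and the smallest p in the lysosomal protease Ctsz (0.33 ± 0.11) and the tetraspanin Cd9 (0.34 ± 0.13). Over all 16 listed genes the median sum was 1349 CPM in dependent and 1317 CPM in non-dependent libraries. On PLX5622 it was 1349 CPM and 1369.5 CPM, so the sum of this list did not fall with the homeostatic one. Its values therefore cannot be read as those of microglia alone. Among 12 interferon response genes 10 were above 0, with a median of 0.14, and 2 were higher at an unadjusted edgeR p under 0.05. Ifitm3, an antiviral membrane protein, was at 8.14, 16.0 and 31.8 CPM in dependent and at 6.92, 12.1 and 14.5 CPM in non-dependent libraries (0.70 ± 0.20, edgeR adjusted p = 0.505, and 0.44 without the 3 libraries highest in olfactory bulb genes), and Irf9, which joins STAT proteins in the interferon signal, had medians of 11.7 CPM in dependent and 8.21 CPM in non-dependent libraries (0.51 ± 0.17). The highest value of both Ifitm3 and Gbp7 was that of dependent mouse 28, a library that was also highest in olfactory bulb genes and in genes of choroid plexus and meninges. Without the 3 libraries highest in olfactory bulb genes the interferon median was 0.06, and with only the 3 spike-in dependent libraries 0.02. Their part in the result was not tested. Inflammatory signalling had 8 of 12 genes above 0 and a median of 0.08, with Nfkbia, the inhibitor of NF-kappaB, at 0.25 ± 0.12 and the interleukin receptor Il1r1 at 0.41 ± 0.20 (0.26 without those 3 libraries). Of the border macrophage genes 1 of 9 passed the filter on low counts, F13a1 (0.40 ± 0.27).

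Stress hormone genes gave no call. Of 18 tested genes that answer glucocorticoids 15 were above 0 and the median was 0.15, with 2 higher at an unadjusted edgeR p under 0.05. Sgk1, a kinase induced by the glucocorticoid receptor, was at 119, 147.3 and 162 CPM in dependent and at 86.3, 113.9 and 143.3 CPM in non-dependent libraries (0.31 ± 0.10, edgeR adjusted p = 0.663). All 9 dependent libraries lay above the non-dependent median of Sgk1. Mt1, metallothionein, differed by 0.18 ± 0.09, and by 0.10 without the 3 libraries highest in olfactory bulb genes. Fkbp5, the co-chaperone of the receptor, had medians of 67.4 CPM in dependent and 51.9 CPM in non-dependent libraries with overlapping ranges (0.15 ± 0.19). Fkbp5 was highest among non-dependent mice in mouse 17 at 95.9 CPM, and its log2 fold change was 0.30 without that library and -0.02 without the 3 libraries highest in olfactory bulb genes. In the corticotropin-releasing hormone system, a stress peptide signal long studied in withdrawal, 3 genes were tested and the receptor Crhr1 (-0.12 ± 0.12) and the binding protein Crhbp (0.07 ± 0.08) bracketed 0. Among 7 tested opioid genes 5 were above 0 with a median of 0.17, and the 2 of smallest p were the nociceptin receptor Oprl1 (-0.14 ± 0.08) and its ligand gene Pnoc (0.20 ± 0.23). Other neuropeptides had 6 of 13 above 0 and a median of -0.02, with Npy at -0.17 ± 0.10 and the somatostatin receptor Sstr2 at 0.22 ± 0.14.

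Lists of GABA-A and glutamate receptor genes had medians close to 0. None of 13 GABA-A receptor subunits was called, 5 were above 0 and the widest value was 0.09, with Gabra5 at 0.08 ± 0.08 and Gabra4 at -0.04 ± 0.05. Of 17 ionotropic glutamate receptor genes 14 were above 0, though the median was 0.03, and the 2 of smallest p were Grik1 (0.17 ± 0.07) and Grin3a (0.12 ± 0.07). Metabotropic receptors and postsynaptic scaffolds had 9 of 17 above 0 and values from -0.18 to 0.36, with Homer1 as given above. Genes of GABA neurons had 9 of 17 above 0, with Gad1, which makes GABA, at -0.02 ± 0.16 and Lamp5, a marker of neurogliaform cells, at -0.20 ± 0.10. Markers of cortical excitatory neurons had 8 of 17 above 0, with the vesicular glutamate transporter Slc17a7 at -0.03 ± 0.05, the deep-layer gene Ccn2 at 0.51 ± 0.23 and Rspo1 at -0.41 ± 0.26. Glutamate transport had 5 of 7 above 0, with Slc1a1 at 0.07 ± 0.06 and Slc1a2 at 0.05 ± 0.04.

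Genes of vesicle release had 6 of 19 above 0 and a median of -0.02. Among potassium and HCN channels, 10 of 16 were above 0. Kcnj9, a GIRK channel subunit, had medians of 101.1 CPM in dependent and 118.01 CPM in non-dependent libraries (-0.20 ± 0.06). Calcium channels had 9 of 15 above 0, with Cacna1a at -0.09 ± 0.05 and Cacna1g at -0.14 ± 0.09. Monoamine receptors had 12 of 15 above 0 and a median of 0.10, but the smallest p was that of the serotonin receptor Htr5a at -0.45 ± 0.15, followed by the adrenergic receptor Adra2a at 0.43 ± 0.17 (0.21 without the 3 libraries highest in olfactory bulb genes). Endocannabinoid genes had 3 of 7 above 0, with Faah, which breaks down anandamide, at -0.21 ± 0.08 and Napepld at -0.19 ± 0.13. All 4 tested neurotrophin genes were above 0 with a median of 0.07, among them Sort1 (0.14 ± 0.04) and Ntrk2 (0.07 ± 0.04). Kinases and phosphatases linked to ethanol responses had 9 of 14 above 0, with Ptpra at 0.14 ± 0.05 and Prkce at 0.05 ± 0.04. None of the genes in these lists was called.

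No gene of the lists for splicing, chromatin, the circadian clock or the respiratory chain was called. Splicing factors had 3 of 16 above 0 and a median of -0.03, with Srsf3 far from the rest and Son next at -0.08 ± 0.04. Chromatin regulators had 8 of 22 above 0 and a median of -0.04, with the deacetylases Hdac8 (-0.11 ± 0.05) and Hdac2 (-0.10 ± 0.07). Circadian clock genes had 6 of 17 above 0 and a median of -0.01, with Tef at -0.12 ± 0.05 and Bhlhe41 at -0.15 ± 0.07. Respiratory chain genes had 9 of 27 above 0 and a median of -0.03, with Atp5b at -0.08 ± 0.04. Genes of 100 kb or more had a median of 0.02 (2213 genes), against -0.01 for shorter ones (10109 genes), and Spearman's rho of the fold change with gene span was 0.0402 over genes.

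Myelin genes were above 0 in 15 of 16 cases, against 49.9% of all genes, with a median of 0.13 and 0 calls. At an unadjusted edgeR p under 0.05, 2 were higher, against 3.06% of all genes. Summed over the list, levels were 1658, 2033 and 2528 CPM in dependent and 1802, 1906 and 2014.5 CPM in non-dependent libraries, so the groups overlapped. Olig1, a transcription factor of the oligodendrocyte lineage, was at 61.6, 70.7 and 90.9 CPM in dependent and at 58.5, 62.2 and 64.9 CPM in non-dependent libraries (0.24 ± 0.08, edgeR adjusted p = 0.663). Mag, a myelin adhesion protein, had medians of 37.8 CPM in dependent and 27.8 CPM in non-dependent libraries (0.26 ± 0.13). Mbp, myelin basic protein, was at 631, 802 and 986 CPM in dependent and at 717, 736 and 825 CPM in non-dependent libraries (0.11 ± 0.10). The dependent range of Mbp spanned the non-dependent one on both sides. Mbp and Olig1 were both highest in dependent mouse 9, which also had the highest striatal sum of the control-diet libraries (1406 CPM). Whether myelin and striatal levels are linked was not tested. Precursor genes had 6 of 8 above 0, with Enpp6 at 0.42 ± 0.21 and Bcas1 at 0.18 ± 0.09, both known from newly forming oligodendrocytes. Cholesterol synthesis had 19 of 22 above 0 with a median of 0.06, with Msmo1, an enzyme of the later steps, at 0.13 ± 0.06.

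Astrocyte genes had 11 of 16 above 0 and a median of 0.03, with the water channel Aqp4 at 0.22 ± 0.12 and Aldh1l1 at -0.19 ± 0.11. Gfap, which rises in reactive astrocytes, was at 12.8, 23.0 and 48.4 CPM in dependent and at 18.2, 23.8 and 32.5 CPM in non-dependent libraries (0.07 ± 0.22), and reactive astrocyte genes had 2 of 4 above 0, with Vim at 0.31 ± 0.16 and Cd44 at -0.29 ± 0.23. Matrix genes had 9 of 10 above 0 with a median of 0.08 and the smallest p in the lecticans Bcan, with medians of 167 CPM in dependent and 148.2 CPM in non-dependent libraries (0.17 ± 0.06), and Ncan (0.11 ± 0.06). Ethanol metabolism and antioxidant genes had 14 of 21 above 0, with the glutathione transferase Gstm1 at medians of 86.2 CPM in dependent and 69.9 CPM in non-dependent libraries (0.24 ± 0.07, edgeR adjusted p = 0.567) and Prdx1 at 0.15 ± 0.08. Heat shock and ER stress genes had 19 of 28 above 0 and a median of 0.02, with the chaperones Canx (0.10 ± 0.05) and Dnajb9 (0.14 ± 0.07).

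Genes of vessels, borders and neighbouring tissue gave no call, and single libraries held their highest sums. Endothelial genes had 11 of 15 above 0 and a median of 0.09, with the glucose transporter Slc2a1 at 0.22 ± 0.08 and Ly6a at 0.34 ± 0.13 (0.22 without the 3 libraries highest in olfactory bulb genes). All 6 tested mural genes were above 0 with a median of 0.13, and Acta2, smooth muscle actin, was at 2.92, 4.52 and 10.8 CPM in dependent and at 1.44, 2.85 and 4.49 CPM in non-dependent libraries (0.88 ± 0.31, edgeR adjusted p = 0.669), while Rgs5 differed by 0.11 ± 0.08. On PLX5622 Acta2 had a value of -0.55 ± 0.28. Genes of choroid plexus and meninges had 5 of 6 above 0, with Bgn at 0.44 ± 0.25 and Dcn at 0.38 ± 0.28, and their sum was highest in dependent mouse 28 at 162 CPM, against a non-dependent maximum of 89.1 CPM. The haemoglobin gene Hbb-bs differed by -0.31 ± 0.29. The 12 striatal genes had the largest median of the lists, 0.41, with all 10 tested above 0, Rgs9 at 0.76 ± 0.54 and Syndig1l at 1.07 ± 0.77. Their sum was 644, 850 and 1406 CPM in dependent and 675, 780 and 942 CPM in non-dependent libraries, with the maximum in dependent mouse 9. None of them was called. On PLX5622 all 10 tested striatal genes were also above 0, with a median of 0.47. In CeA 4 of 10 were above 0, with a median of -0.01. Whether the amount of striatal or border tissue in a dissection moved with drinking history was not tested.

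**Figure D5:**
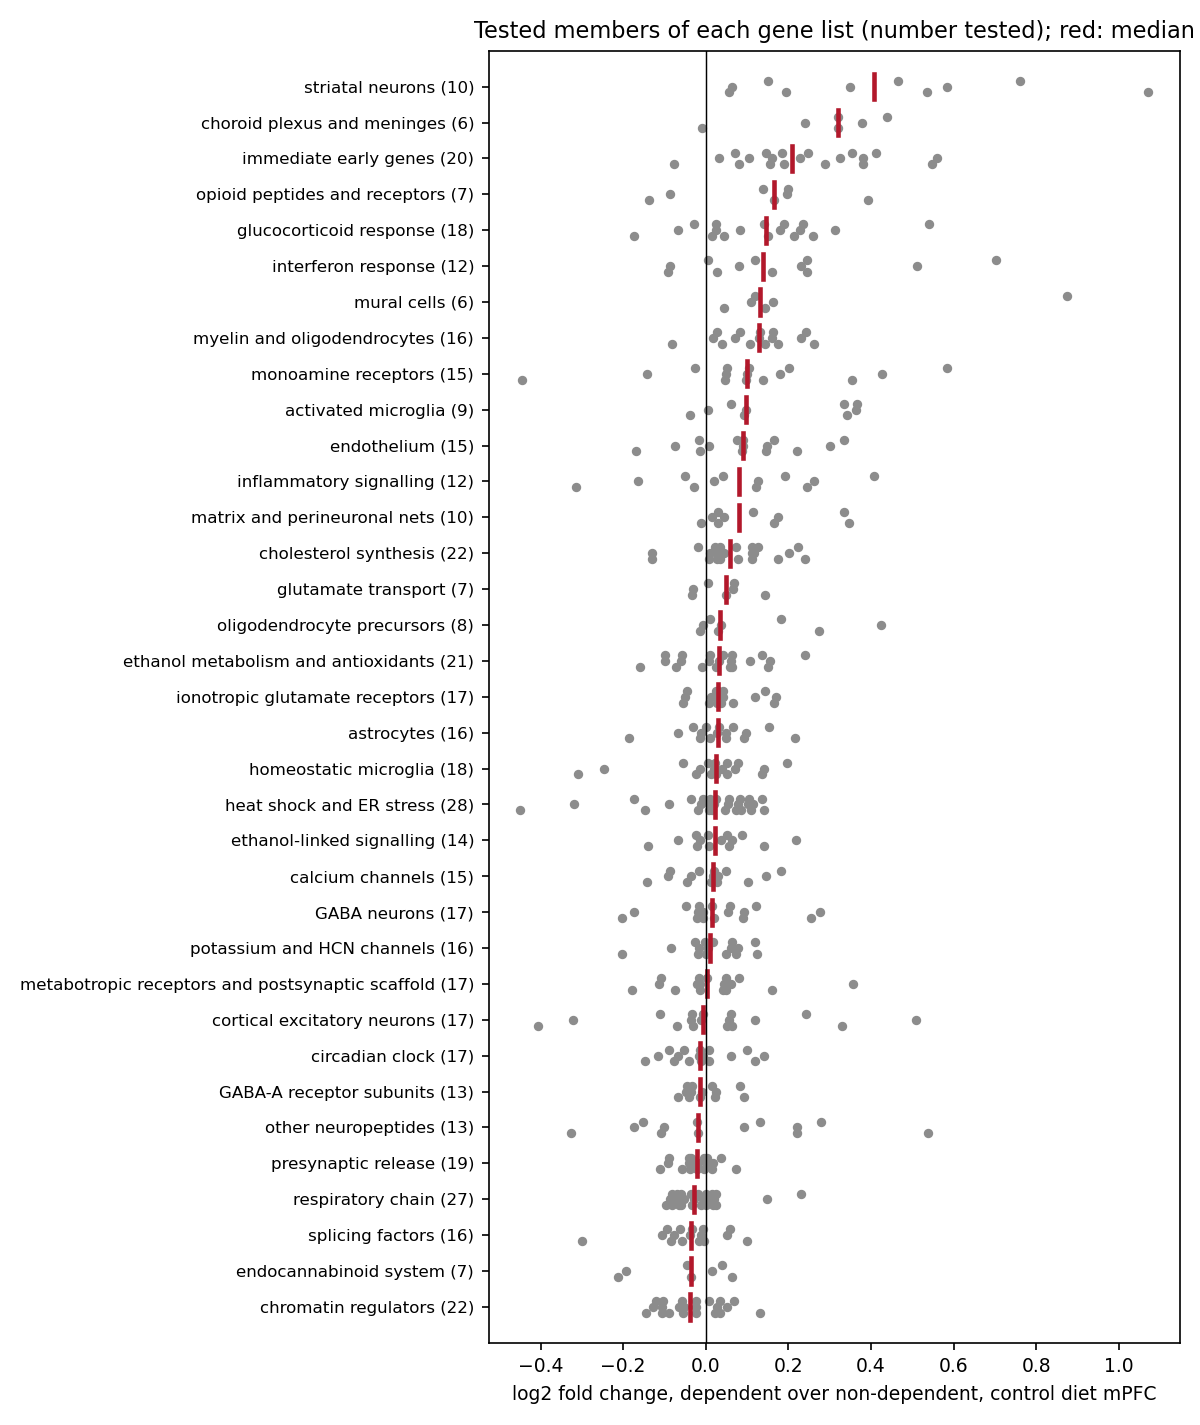
Log2 fold change of dependent over non-dependent control-diet mice (horizontal axis) for each tested member of the gene lists with 5 or more tested members (vertical axis, number tested in parentheses). Grey points are genes and red bars medians. Striatal genes have the highest median (0.41), immediate early genes a median of 0.21, and Jun is the 1 called gene.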

How the data were processed

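What was deposited are counts of reads per Ensembl gene, as the authors' counting gave them and not normalized, with 1 library per mouse. The submitters' processing notes name FastQC 0.11.8, Bowtie2 2.3.4.3, HTSeq 0.11.0 and the build GRCm38.p6, and do not give their settings, the use of strand or the handling of duplicate reads. Of 54547 gene identifiers 53706 took a symbol from GENCODE, and the 92 spike-in and 5 summary entries stayed out of library sizes and tests.

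Groups came from the labels. The 34 mPFC libraries entered 1 fit of 4 groups in edgeR 4.0.16 (R 4.3.3), after filterByExpr with a minimum count of 10 and a minimum total of 15, with TMM factors, a robust two-sided quasi-likelihood F test and Benjamini-Hochberg adjustment. CeA was fitted apart. A standard error is the absolute log2 fold change divided by the root of F, and CPM are scaled to TMM library size. The fit was tested on simulated counts. No pair of libraries in a group matched within counting noise (chi-square per gene of at least 1.12).

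The text names every called gene, the 12 of smallest p in each direction, the 2 of smallest p in each of 40 lists and fixed anchors (Csf1r, P2ry12, Fkbp5, Bdnf, Fos, Gad1, Slc17a7, Gfap and Mbp), and adds all immediate early genes. Some genes that this rule takes from the lists are not reported here. Members and lists were chosen with earlier results of these data known. Alternatives were other normalizations, DESeq2 1.42.0, limma 3.58.1, sva 3.50.0, other filters, control-diet libraries alone, spike-in handling and leaving out each library.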

Additional observations from a re-analysis of the deposited data

Results flagged for a closer look

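Of 260 groups of values checked for a library far from its group, 12 were marked, where chance marks about 1 in 20. Among neuronal genes, Dusp6 reached 75.8 CPM in dependent mouse 10, against 55.9 to 62.6 CPM in the other dependent libraries, and Egr1 was at 194 CPM in non-dependent mouse 34, against 279 to 320 CPM in the other non-dependent ones. Cacna1g was at 52.1 CPM in dependent mouse 3 and at 29.5 CPM in non-dependent mouse 35. Gabra5 was at 69.0 CPM in dependent mouse 9, below the rest of its group. Ctsz was low at 14.0 CPM and Fkbp5 high at 95.9 CPM in non-dependent mouse 17, and Mbp was high at 825 CPM in non-dependent mouse 35. Olfactory bulb genes summed to 120 CPM in dependent mouse 28 and to 69.4 CPM in non-dependent mouse 20. Striatal genes summed to 1406 CPM in dependent mouse 9, against 644 to 1013 CPM in the other dependent libraries, and genes of choroid plexus and meninges to 162 CPM in dependent mouse 28.

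Spike-in entries, which no comparison used, held 26723 counts in dependent mouse 4, 21989 in dependent mouse 10 and 32416 in dependent mouse 27, against at most 51 in the other control-diet mPFC libraries.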

How the results depend on the processing

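Jun kept its direction in all 28 alternatives and its call under every normalization and tool tried. The call was lost without the spike-in libraries (log2 fold change 0.56) and in both alternatives chosen after seeing the data, with only the 3 spike-in dependent libraries (0.52, edgeR adjusted p = 0.562) and without the 3 libraries highest in olfactory bulb genes (0.51, adjusted p = 0.331). In each of these 3 fits 0 genes were called in total and 0 higher. Over the fits that left out 1 library, the log2 fold change of Jun ran from 0.51 to 0.59, its adjusted p from 0.0057 to 0.103, and called genes from 0 to 2, with 0 to 2 higher and 0 to 1 lower. The additions were Srsf3 without non-dependent mouse 17 and 4833422C13Rik without non-dependent mouse 33. With 1 surrogate variable 2 genes were called, 1 of them lower (Srsf3, -0.32). Without the filter on low counts 10 were called, 7 higher and 3 lower, which added 4833422C13Rik, Adgrg1, Hrk, Hs3st2, Ifitm3, Lhfp, Srsf3, Tfrc and Tmem267 to Jun. On PLX5622 the count was 8 without the filter and 1 without the spike-in libraries (Sstr2), and in CeA 18 without the filter and 0 with DESeq2 size factors. The cause of these changes was not tested.

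Of the named genes 11 changed sign in some alternative and the others in none. With only the 3 spike-in dependent libraries the sign turned for Fosb (-0.0037), Nptx2 (-0.0031), Slc1a1 (-0.0038), Gabra4 (0.055), Fkbp5 (-0.049), Bdnf (-0.014) and Gfap (-0.48). Without the 3 libraries highest in olfactory bulb genes it turned for Gabra4 (0.0023), Fkbp5 (-0.023), Egr3 (0.00060), Npas4 (-0.034) and Gfap (-0.11). Without those 3 the value moved by over 1.5 times, with its sign kept, for Ifitm3, Il1r1, Mt1, Adra2a and Ly6a as given above, and for Dcn (0.23), Pnoc (0.12), Slc1a1 (0.04), Ier5 (0.06), Cacna1g (-0.09), Hdac2 (-0.05), Gad1 (-0.11) and Hbb-bs (-0.17). Gfap was also below 0 with limma (-0.057) and with 1 surrogate variable (-0.036), and Gad1 above 0 without the spike-in libraries (0.087). Leaving out 1 library took Npas4 between -0.012 and 0.22, Ier5 between -0.010 and 0.074, Gfap between -0.12 and 0.17 and Gad1 between -0.13 and 0.065. Without the filter on low counts Ifitm3 was called on the control diet and Cacna1g on PLX5622. None of the other genes of this paragraph was called in any fit.

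No paired analysis was possible because the mouse numbers of dependent and non-dependent mPFC libraries are not shared. A median over border macrophage genes could not be had at a mean CPM of 5 or more. Depth limits genes of few reads, and strand limits genes with an antisense partner.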
